A study of Mus musculus with 8 samples.

Results

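The 9 genes described here encode RNA-binding proteins that set the splicing of muscle transcripts: Rbm20, Rbm24, Rbfox1, Rbfox2, Mbnl1, Mbnl2, Celf1, Celf2 and Ptbp1. They were chosen by name, and all 9 were among the 17911 genes of the deposited table. RNA was sequenced from single whole hearts of wild-type C57Bl6/J mice, 4 male and 4 female, to compare the sexes. The mice received no treatment that the labels name, all hearts carry the same batch label, and the age is given as 4 weeks in the design text and 4 to 6 weeks in the protocol. The protocol names a kit for small RNA, and the labels call the molecule total RNA.

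Splicing regulators of this kind bind short motifs in introns beside alternative exons and raise or lower the use of those exons, often according to whether they bind upstream or downstream. RBM20 represses exons of titin and other sarcomere and calcium-handling transcripts in heart muscle, and its loss or mutation causes cardiomyopathy. RBFOX proteins bind UGCAUG, MBNL proteins bind motifs around GC with flanking pyrimidines, and CELF proteins bind UG-rich sequence. MBNL and CELF proteins act against each other on many exons that switch between the fetal and the adult heart, and PTBP1 binds pyrimidine-rich tracts, mostly as a repressor. The table holds 1 value per gene, so levels of splicing regulators and of their target genes were measured here, and exon use was not.

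Assigned reads ranged from 51.7 M to 75.7 M per heart, and the labels state more than 80 M. Values are normalized read counts, that is, reads assigned to a gene divided by 1 size factor per heart. In whole-heart RNA fewer cells of a type and less RNA per cell cannot be told apart. Heart muscle was checked with 10 cardiomyocyte markers (Myh6 and Tnnt2 among them): all were present, with summed values of 5014036 to 5472122 in females and 4918159 to 5289871 in males. Myh6 alone had a mean of 2244069 and so weighs heavily in that sum. None of the 10 passed in limma. At an unadjusted p under 0.05 there were 4 of 10, where 16.0% of all genes were: Myh6 higher in females, and Actc1, Ckm and Myl3 lower. The authors' deposited table has 2 of the 10 at an adjusted p under 0.05, Actc1 (0.00636) and Ckm (0.0217), with limma log2 fold changes of -0.19 and -0.13. Of all its genes with an adjusted p, 4.9% are under that threshold. Skeletal muscle markers summed to 299.6 to 543.2 in females and 352.0 to 475.4 in males, and 4 of its 7 markers (Myh1, Myh2, Myh4 and Myod1) were not among the genes of the table. The lowest value of any of the 9 splicing regulators in any heart was 3157, for Ptbp1.

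None of the 9 genes passed the test between the sexes (limma, 0 of 9 at an adjusted p under 0.05), where 1.16% of all genes did, 0.475% higher and 0.687% lower in females. At an unadjusted p under 0.05 there were 3 of 9, Rbfox2, Rbm20 and Rbfox1, all higher in females, and 7.84% of all genes met that rule in that direction. edgeR's quasi-likelihood test and limma-voom on the recovered reads called 0 of 9, while DESeq2 called 1, Rbfox2, where it called 4.9% of the genes it tested. The authors' deposited table also lists Rbfox2 alone at an adjusted p under 0.05. Of its genes with an adjusted p, 4.9% do, and 2.16% do with females higher. Its values nearly equal those of DESeq2 here (690 of 14088 genes called in both), so the 2 are not counted as separate results. Fold changes were positive in females for 8 of 9 genes and for 50.9% of all genes, with a median of 0.02 on the log2 scale against 0.00 over all genes. The plot of the regulators by heart shows these values.

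**Figure D1:**
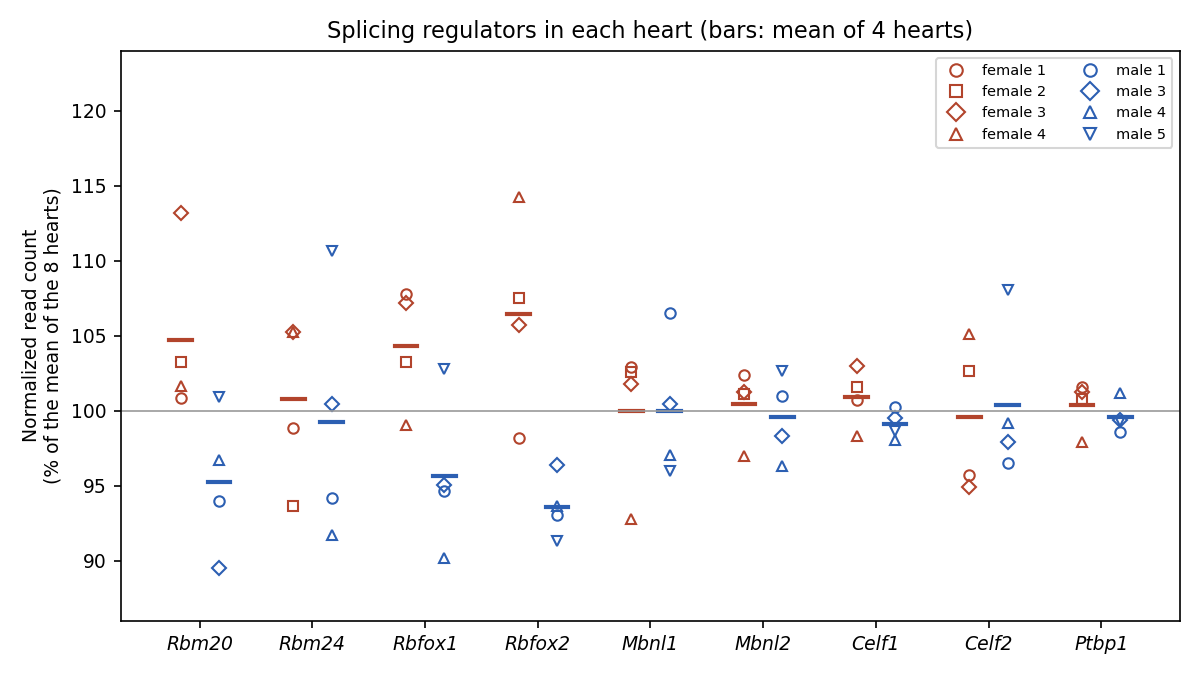
Normalized read count of each of the 9 genes in each heart, as a percentage of that gene's mean over the 8 hearts (vertical axis, which does not start at 0). Symbols mark single hearts, females in red and males in blue, and bars mark the mean of 4 hearts; the sexes are apart for Rbfox2 and overlap for the other 8 genes.

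Several of these genes come as paralogues with similar coding sequence, so the sequences were compared to see whether their reads could be told apart. In the longest complete coding sequences of the GENCODE vM21 transcripts (mm10), Rbfox1 and Rbfox2 were 81.0% identical over 410 aligned bases, with a longest identical run of 29 bases. Mbnl1 and Mbnl2 were 75.8% identical over 1064 bases, with a longest run of 26, and Celf1 and Celf2 75.5% over 1438 bases, with a longest run of 23. Ptbp1 and its paralogue Ptbp2 were 73.1% identical, with a longest run of 14. No 50-base word was shared within any of these pairs. The stretches of 120 coding bases around the longest run of the Rbfox, Mbnl and Celf pairs are given here, 5′ to 3′. Whether other stretches differ at fewer bases was not tested. Capitals mark bases that differ from the paralogue.
Rbfox1: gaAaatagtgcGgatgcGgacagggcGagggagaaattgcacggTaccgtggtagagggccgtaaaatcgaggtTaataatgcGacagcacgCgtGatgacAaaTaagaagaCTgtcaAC
Rbfox2: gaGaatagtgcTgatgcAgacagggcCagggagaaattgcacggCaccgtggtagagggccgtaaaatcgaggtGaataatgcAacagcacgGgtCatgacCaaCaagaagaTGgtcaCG
The Rbfox stretches differ at 15 of 120 bases. They are coding bases 547 to 666 of Rbfox1 (chr16:7292206-7294117, plus strand) and 679 to 798 of Rbfox2 (chr15:77102892-77105648, minus strand), each interrupted by 1 intron in the genome.
Mbnl1: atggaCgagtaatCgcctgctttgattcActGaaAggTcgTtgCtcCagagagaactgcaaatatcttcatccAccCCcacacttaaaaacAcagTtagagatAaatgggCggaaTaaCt
Mbnl2: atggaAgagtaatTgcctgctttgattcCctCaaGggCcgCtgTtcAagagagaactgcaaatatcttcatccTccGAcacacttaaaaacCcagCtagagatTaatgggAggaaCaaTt
The Mbnl stretches differ at 18 bases and are coding bases 140 to 259 of both genes (chr3:60529770-60595678, plus strand, and chr14:120325378-120379234, plus strand), also across 1 intron each.
Celf1: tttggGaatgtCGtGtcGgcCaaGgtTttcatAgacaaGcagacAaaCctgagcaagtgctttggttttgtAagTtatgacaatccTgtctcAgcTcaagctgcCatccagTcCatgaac
Celf2: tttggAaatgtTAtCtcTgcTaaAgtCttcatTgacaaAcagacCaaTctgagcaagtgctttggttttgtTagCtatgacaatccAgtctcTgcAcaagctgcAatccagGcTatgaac
The Celf stretches differ at 20 bases and are coding bases 1351 to 1470 of Celf1 (chr2:91012779-91013293, plus strand) and 1390 to 1509 of Celf2 (chr2:6547158-6549895, minus strand), again across 1 intron each.

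Words shared with any other gene were also counted over all annotated transcripts of each regulator. Rbm20, Rbm24, Rbfox1, Rbfox2 and Celf2 had 0 words of 50 bases in common with another gene. Mbnl1, Mbnl2 and Celf1 shared 0.108%, 0.0577% and 0.0803% of theirs, and 0 words of 100 bases. Ptbp1 shared 4.75% of its 50-base words and 0.758% of its 100-base words, with the predicted genes Gm4900 and Gm18815 at 50 bases and with Gm4900 at 100. Neither read length nor the handling of multiply matching reads is stated in the labels or file. Several regulators also overlap other genes in the table on the opposite strand, at low level. Ptbp1 overlaps Plppr3 (mean value 177.3) and E130317F20Rik (124.5), Rbm20 overlaps Gm16299 (109.7), and Rbfox2 overlaps 1700109K24Rik (23.7). Without a stated strand setting, reads of these neighbours cannot be told apart from those of the regulators. On the same strand Mbnl1 overlaps Gm37589 (13.0) and Celf2 overlaps Gm10115 (18.3), and a strand setting would not separate their reads.

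Per kilobase of merged exons, Rbm24 and Rbm20 stood above the other regulators and Celf2 below them. Rbm24 had a mean of 3885 normalized reads per kb (3563 to 4300 over the 8 hearts) and Rbm20 2422 (2168 to 2741). Mbnl2 followed with 1109 per kb (1068 to 1138). Celf1 (888), Rbfox2 (835) and Rbfox1 (823) formed the next group, and neighbours within it overlapped between hearts (870 to 914, 762 to 954 and 742 to 887). Ptbp1 had 680 per kb (666 to 691), Mbnl1 492 (457 to 524) and Celf2 163 (155 to 176), none of which overlapped its neighbour. The order below the first 3 depended on the length used. Mbnl1 has 25 annotated transcripts and 18.7 kb of merged exons but a longest transcript of 5.66 kb, and with the longest transcript it had 1629 per kb and stood next after Mbnl2. Celf2 has 28 transcripts and 25.9 kb of merged exons, and stayed last with 476 per kb. Rbfox1, Ptbp1, Rbfox2 and Celf1 then had 1183, 1018, 984 and 955 per kb, and Rbfox2 (898 to 1124) overlapped each of the other 3.

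**Figure D2:**
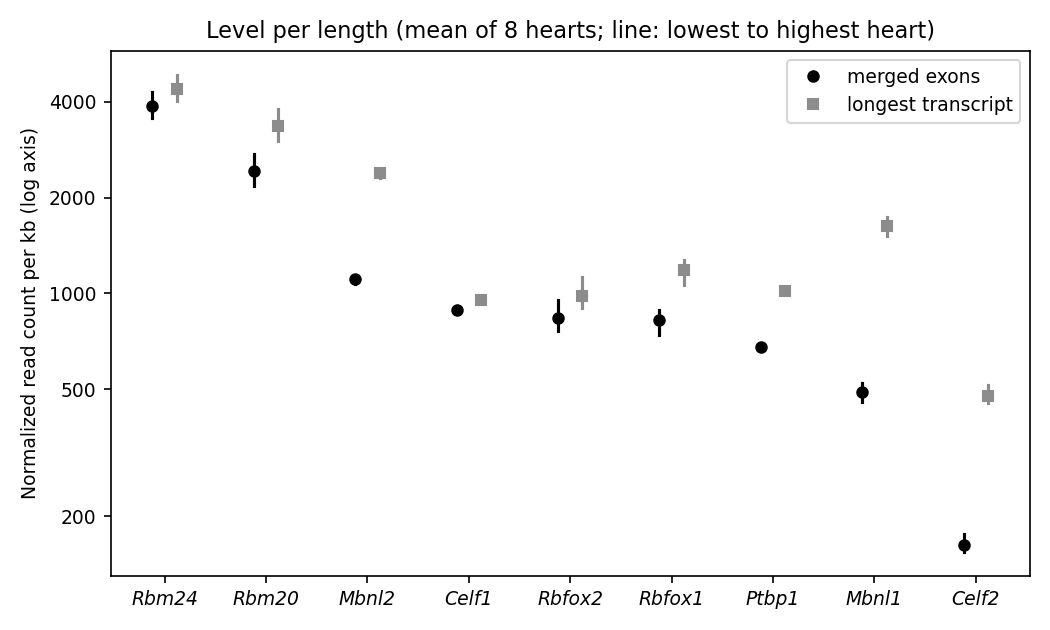
Normalized read count per kb of each regulator (log axis), divided by the length of merged exons (black circles) or of the longest annotated transcript (grey squares). Points are means of the 8 hearts and lines run from the lowest to the highest heart; Rbm24 and Rbm20 lead by both lengths, and Mbnl1 rises from 492 to 1629 with the second.

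The RBFOX genes had 2 of the 3 smallest p-values among the regulators. Rbfox2 (ENSMUSG00000033565, chromosome 15, 77078990 to 77307004, minus strand, mm10), which is expressed in many tissues, had normalized read counts of 6672, 7305, 7180 and 7764 in female replicates 1 to 4. In male replicates 1, 3, 4 and 5 it had 6322, 6547, 6360 and 6202. The lowest female heart thus lay just above the highest male heart, and Rbfox2 was the 1 regulator of 9 with no overlap between the sexes, where 9.35% of all genes had none and 4.52% had none with females higher. The female mean was 7230 ± 449 and the male mean 6358 ± 143 (SD, n = 4 each). The log2 fold change was 0.18 (95% interval 0.09 to 0.28), a difference of 13.6%, with a limma adjusted p = 0.0631. DESeq2 on the recovered reads gave an adjusted p = 0.00666 and the authors' deposited table gives 0.00666. Without female replicate 1, the lowest female heart, the limma adjusted p was 0.0262 and the log2 fold change 0.22, and without any other heart it lay between 0.0643 and 0.18. With total reads as a covariate the adjusted p was 0.124.

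Rbfox1 (ENSMUSG00000008658, chromosome 16, 5885355 to 7411526, plus strand), the paralogue known for expression in muscle and neurons, had 3903, 3738, 3882 and 3587 in females. The males had 3426, 3442, 3266 and 3723. Male replicate 5 lay above female replicate 4, so the sexes overlapped. The log2 fold change was 0.13 (95% interval 0.03 to 0.22, limma adjusted p = 0.181), and 3 of 4 female hearts were above every male heart. In the authors' deposited table its adjusted p was 0.13.

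Of the RBM genes, Rbm20 was nearer to the threshold and the interval of Rbm24 spanned 0. Rbm20 (ENSMUSG00000043639, chromosome 19, 53677306 to 53867080, plus strand) had 16591, 16976, 18612 and 16716 in female hearts. Its male values were 15461, 14720, 15904 and 16596. Female replicate 3 stood highest, and male replicate 5 barely exceeded female replicate 1, which was the whole overlap between the sexes. The female mean was 17224 ± 939 and the male mean 15670 ± 787 (SD, n = 4 each), a log2 fold change of 0.14 (95% interval 0.04 to 0.23, limma adjusted p = 0.165). Over the 18 alternative fits its adjusted p ran from 0.0703 to 0.507, so it was called in 0 of them, and the authors' deposited table gives 0.0932.

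Rbm24 (ENSMUSG00000038132, chromosome 13, 46418434 to 46431095, plus strand), a promoter of muscle exons that also binds transcripts outside the nucleus, had the largest pooled SD within sexes among the regulators. It had 13410, 12705, 14272 and 14274 in females and 12775, 13625, 12439 and 15010 in males. The 3 highest hearts were male replicate 5 and female replicates 4 and 3, which were also the 3 libraries with the fewest reads (55.0 M, 51.7 M and 61.6 M). Its pooled SD within sexes was 0.10 on the log2 scale, above that of 86.4% of the 7329 genes with a mean value of at least 1000. In the fit with total reads as a covariate, its log2 level changed by -0.43 per doubling of reads (limma adjusted p = 0.178, unadjusted p = 0.00338). The log2 fold change between the sexes was 0.02 (95% interval -0.11 to 0.16, limma adjusted p = 0.893), and it was -0.05 with that covariate. Whether depth had a part in these values was not tested further.

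The muscleblind genes had overlapping values and nearly equal means in the sexes. Mbnl1 (ENSMUSG00000027763, chromosome 3, 60472830 to 60629750, plus strand) had 9482, 9452, 9379 and 8546 in females and 9812, 9257, 8942 and 8842 in males. Female replicate 4 was the lowest of all 8 hearts, and male replicate 1 the highest. The means were 9215 ± 448 and 9213 ± 437 (SD, n = 4 each), with a 95% interval of the difference from -6.26% to 6.70% (limma adjusted p = 1.00). Mbnl2 (ENSMUSG00000022139, chromosome 14, 120275669 to 120431697, plus strand), its paralogue, had 13617, 13449, 13464 and 12899 in females and 13424, 13070, 12809 and 13648 in males. Its interval ran from -3.78% to 5.83% around a difference of 0.911% (limma adjusted p = 0.887). The third family member, Mbnl3, had a mean value of 29.9, or 3.42 per kb, against 492 and 1109 per kb for Mbnl1 and Mbnl2.

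The CELF genes likewise overlapped between the sexes. Celf1 (ENSMUSG00000005506, chromosome 2, 90940382 to 91019497, plus strand) had 7549, 7614, 7717 and 7372 in females and 7513, 7461, 7348 and 7396 in males. It was among the steadiest genes, its SD within sexes exceeding that of 2.13% of the genes with a mean value of at least 1000. The 95% interval of its difference ran from -2.40% to 6.15% (limma adjusted p = 0.714). Celf2 (ENSMUSG00000002107, also on chromosome 2, 6539694 to 7509563, minus strand) had 4035, 4329, 4001 and 4432 in females and 4069, 4128, 4181 and 4555 in males. The hearts of lowest depth in each sex, female replicate 4 and male replicate 5, had its highest values. The interval ran from -7.30% to 6.16% (limma adjusted p = 0.932). The slope of Celf2 on total reads was -0.29 per doubling (limma adjusted p = 0.381, unadjusted p = 0.0231). Of the neuronal CELF genes, Celf3, Celf4 and Celf5 had mean values of 90.5, 104.4 and 36.7, or 16.5, 12.2 and 5.50 per kb.

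Ptbp1 (ENSMUSG00000006498, chromosome 10, 79854427 to 79864771, plus strand), which is known to decline as muscle and neurons mature, had the smallest pooled SD within sexes among the regulators. It had 3275, 3250, 3265 and 3157 in females and 3179, 3204, 3263 and 3203 in males. Its SD within sexes exceeded that of 1.64% of the genes with a mean value of at least 1000. The difference was 0.773% (95% interval -3.58% to 5.33%, limma adjusted p = 0.898). Ptbp2, the neuronal paralogue, had a mean value of 1389 (151 per kb against 680 for Ptbp1) and Ptbp3 2055 (275 per kb). Ptbp2 had a log2 fold change of 0.14 (95% interval 0.03 to 0.25, limma adjusted p = 0.19).

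**Figure D3:**
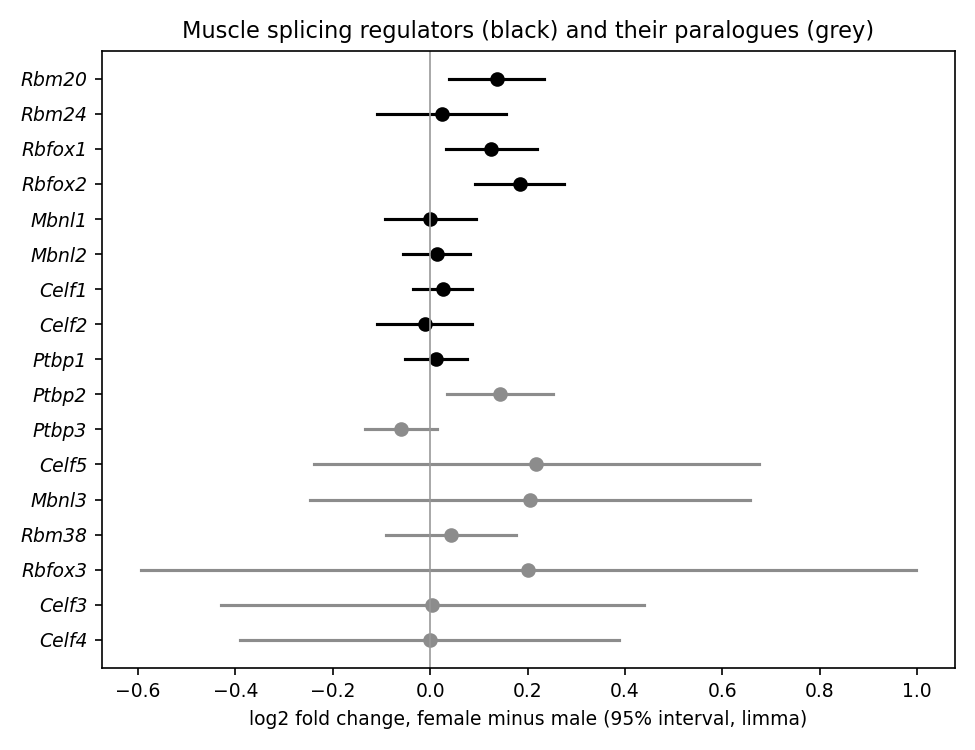
Log2 fold change, female minus male, with its 95% interval from limma, for the 9 regulators (black) and 8 measured paralogues (grey). The intervals of Rbfox2, Rbm20 and Rbfox1 lie above 0, as does that of Ptbp2; none of the 17 genes passed after adjustment over all genes.

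Ratios of paralogues within a heart do not depend on the size factor, and 0 of the 4 tested passed between the sexes. The permutation test compared the mean log2 ratio (of value + 1) of the sexes, and the ratios printed are not on the log scale. The Mbnl2 to Mbnl1 ratio of normalized read counts averaged 1.45 ± 0.0394 for females against 1.44 ± 0.0747 for males (SD, n = 4 each, two-sided exact permutation p = 0.771). The Celf2 to Celf1 ratio was 0.556 ± 0.0369 and 0.570 ± 0.0326 (exact permutation p = 0.543, n = 4 each). For Rbfox1 to Rbfox2 it was 0.525 ± 0.0516 and 0.545 ± 0.0384 (exact permutation p = 0.486, n = 4 each), since both genes had higher female means. The Ptbp2 to Ptbp1 ratio was 0.465, 0.456, 0.427 and 0.453 in females and 0.451, 0.410, 0.379 and 0.404 in males. Male replicate 1 lay among the females, and the exact permutation p was 0.0571 (n = 4 each), or 0.229 after Benjamini-Hochberg adjustment over the 4 ratios. The smallest p the design allows is 0.0286. These are ratios of reads and not of transcripts: per kb of merged exons the mean ratios were 2.26 for Mbnl2 to Mbnl1, 0.184 for Celf2 to Celf1, 0.990 for Rbfox1 to Rbfox2 and 0.223 for Ptbp2 to Ptbp1. Per kb of the longest transcript they were 1.47, 0.499, 1.21 and 0.337 in the same order, so which RBFOX gene had the higher level depended on the length used.

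**Figure D4:**
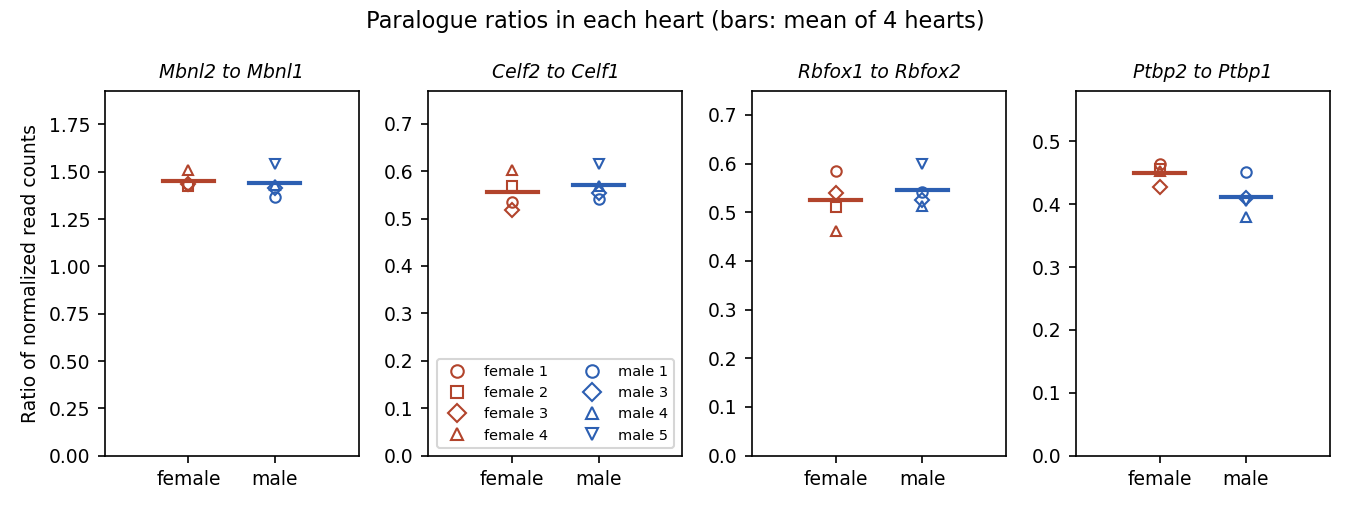
Ratio of normalized read counts of 4 paralogue pairs in each heart (vertical axes start at 0), with symbols for single hearts and bars for the mean of 4. The sexes overlap in all 4 panels; for Ptbp2 to Ptbp1, 3 of 4 male hearts lie below every female heart.

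After each sex's mean was subtracted, some pairs of regulators had positive correlations over the hearts and others negative ones. Over the 8 hearts, which share their library and depth for all genes, the 36 pairs had Pearson r from -0.72 to 0.90 with a median of 0.22. Of these, 5 lay above 0.5 and 5 below -0.5. The same shares over pairs of all genes were not computed. Many other genes reached such values: for Rbm24, Rbfox1 at r = 0.60 ranked 1520 of 12776. Rbfox1 and Mbnl2 were the closest pair (r = 0.90), and Mbnl2 ranked 42 among the 12776 genes compared with Rbfox1. Mbnl1 and Celf1 followed (r = 0.82, with Celf1 ranking 149 for Mbnl1). The most opposed pairs were Mbnl1 with Celf2 and Mbnl2 with Rbfox2 (r = -0.72 for both), and the RBFOX paralogues had r = -0.64. Counted from the most negative r, Celf2 ranked 539 for Mbnl1, Rbfox2 485 for Mbnl2 and Rbfox1 613 for Rbfox2. The slopes on total reads per doubling were 0.23 for Mbnl1 and -0.29 for Celf2 (limma unadjusted p = 0.0611 and 0.0231, adjusted p = 0.538 and 0.38). For Mbnl2 and Rbfox2 the slopes were -0.03 and -0.09. The part of depth in these r values was not tested. The regulator closest to Rbm20 and to Rbm24 was Rbfox1 (r = 0.43 and 0.60), that closest to Rbfox2 was Celf2 (0.38), to Celf2 Rbm24 (0.44), and to Ptbp1 Celf1 (0.41). Other genes of the table reached higher values. The 2 genes closest to each regulator had r of 0.96 to 0.99: Card19 and 0610009O20Rik for Rbm20, Zmiz2 and Ubap2 for Rbm24, Cic and Pgm2l1 for Rbfox1, and Disc1 and Cep68 for Rbfox2. They were Rhd and Zmat2 for Mbnl1, Cd164 and mt-Atp8 for Mbnl2, Peli2 and Bend7 for Celf1, Dock4 and Cwc22 for Celf2, and Col13a1 and Siah1b for Ptbp1.

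**Figure D5:**
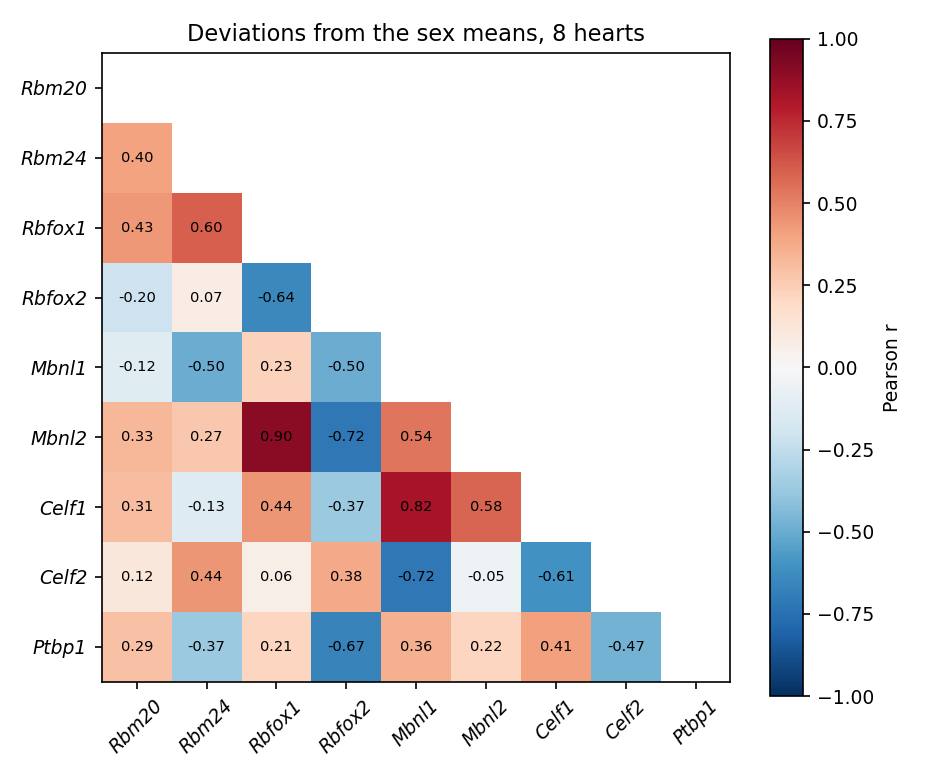
Pearson r over the 8 hearts between the log2 values of each pair of regulators after subtraction of the sex means (colour and printed number). Rbfox1 with Mbnl2 (0.90) and Mbnl1 with Celf1 (0.82) are the most alike; Mbnl1 with Celf2 and Mbnl2 with Rbfox2 (both -0.72) are the most opposed.

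The wider splicing machinery held few genes that passed. Of 8 measured paralogues of the regulators 0 passed in limma, where 1.16% of all genes did. At an unadjusted p under 0.05 there was 1, Ptbp2 (16.0% of all genes), and the authors' deposited table called 0 (4.9% of all genes). The paralogues' median log2 fold change was 0.09, with 4 of the 8 at a mean value below 100. Of the 8, Rbm38, a close relative of Rbm24, was the most abundant at 9935 (3463 per kb, log2 fold change 0.04). Over 29 measured other tissue-restricted splicing regulators the median log2 fold change was 0.04. Among them, Tia1, Khdrbs1 and Msi2 had log2 fold changes of 0.14, 0.11 and 0.09 (limma adjusted p = 0.119, 0.203 and 0.205).

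Among 23 hnRNP genes, whose products coat nascent transcripts and often repress exons, 1 rose and 18 had positive values (median 0.05), where 1.16% of all genes passed and 50.9% were positive. At an unadjusted p under 0.05 there were 7 higher and 0 lower in females, where 7.84% of all genes were higher, and 6 had no overlap between the sexes (9.35% of all genes). Hnrnph2, an X-linked gene (chromosome X, 134601179 to 134607060, plus strand), had 4481, 4725, 4547 and 4470 in females and 4153, 4026, 4139 and 4097 in males, with no overlap. Its log2 fold change was 0.15 (limma adjusted p = 0.0359), and that call was kept without male replicate 5 and ended without each of the other 7 hearts (adjusted p up to 0.125) and with total reads as a covariate (0.0589). Hnrnph2 has the close paralogue Hnrnph1, so its value is uncertain; whether reads of the pair were shared was not tested. Hnrnpl, Hnrnpdl and Hnrnpd had log2 fold changes of 0.20, 0.14 and 0.12 (limma adjusted p = 0.133, 0.109 and 0.173). The authors' deposited table has 3 hnRNP genes at an adjusted p under 0.05, Hnrnph2, Hnrnpl and Hnrnpdl. Of all its genes with an adjusted p, 4.9% are under that threshold.

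Over all genes 16.0% had an unadjusted p under 0.05, 7.84% with females higher, and the authors' deposited table called 4.9%. None of 12 measured SR protein genes passed in limma (2 at an unadjusted p under 0.05, 0 in the authors' deposited table). Their median was 0.01, and Tra2a had the smallest p (log2 fold change -0.12, limma adjusted p = 0.164), followed by Srsf2, Srsf6 and Srsf4 (0.08, -0.05 and 0.06). Of the 10 genes for SR protein kinases and import receptors 0 passed in limma (3 at an unadjusted p under 0.05, 0 in the authors' deposited table), with a median of 0.00. Clk4, Clk3, Clk2 and Srpk2 had values of 0.14, 0.11, -0.08 and -0.10. Of 29 core spliceosome genes 0 passed in limma (5 at an unadjusted p under 0.05, all higher in females, and 3 in the authors' deposited table), with a median of 0.03. Sf1, which recognizes the branch point, Snrnp200 and Prpf8 of the U5 particle, and U2af1 had log2 fold changes of 0.14, 0.12, 0.10 and 0.10 (limma adjusted p = 0.0631, 0.0719, 0.116 and 0.254).

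Few known target genes passed the test on their total level. Of 22 genes whose transcripts RBM20 is known to splice, 1 rose (1.16% of all genes passed in either direction) and the median log2 fold change was 0.00. At an unadjusted p under 0.05 there were 5 higher and 2 lower in females (16.0% of all genes in either direction), and 2, Ryr2 and Cacna1c, have an adjusted p under 0.05 in the authors' deposited table. Ttn, the titin gene, had a value of 357794 ± 5960 in females against 346794 ± 25897 in males (SD over 4 hearts each), with a log2 fold change of 0.05 (95% interval -0.05 to 0.15, limma adjusted p = 0.676). Camk2d, a calcium-dependent kinase gene, and Ldb3, a Z-disc gene, had log2 fold changes of -0.02 and 0.00. They are named for their place among RBM20 targets and after their values were seen, as is Ttn. Ryr2, the calcium release channel gene, had 126349, 127440, 130901 and 128315 in females and 105166, 106847, 115877 and 118086 in males. Its log2 fold change was 0.20 (limma adjusted p = 0.0341), and the call was kept without male replicate 5 and ended without each of the other 7 hearts (adjusted p up to 0.107), with edgeR (0.051 with TMM factors) and with total reads as a covariate (0.0845). Cacna1c, Fhod3 and Mlip, also of this list, had values of 0.15, 0.15 and -0.10 and did not pass in limma. Of 20 genes spliced by MBNL, CELF or RBFOX proteins 0 passed in limma (3 at an unadjusted p under 0.05, and 2, Insr and Nfix, in the authors' deposited table), with a median of 0.01. Insr, Nfix, Bin1 and Mef2d had log2 fold changes of 0.16, 0.15, -0.12 and 0.06 (limma adjusted p = 0.053, 0.112, 0.263 and 0.347).

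Of 6 macrophage markers 3 fell in females and 3 did not pass in limma, where 0.687% of all genes were called lower. Csf1r, C1qa and C1qb fell by 0.36, 0.41 and 0.39 on the log2 scale, and Mrc1, Adgre1 and Cd68 had values of -0.25, -0.53 and -0.22 (limma adjusted p = 0.0719, 0.301 and 0.455). Their summed value was 10319 to 12110 in females and 12984 to 15890 in males, with no marker at 0. Endothelial markers had 6 of 6 negative values, of which 0 passed in limma. At an unadjusted p under 0.05 there were 2 (16.0% of all genes). Their sums were 52531 to 58167 in females and 53479 to 60428 in males. Of 6 fibroblast markers 1 rose, Lum (log2 fold change 0.30), where 0.475% of all genes were called higher. Fibroblast marker sums overlapped between the sexes (60033 to 64824 in females, 62213 to 64182 in males). Smooth muscle and pericyte, nerve and red cell markers had 0 genes that passed in limma, with 0, 2 and 0 at an unadjusted p under 0.05. The part of these cell types in the values of Rbfox2, Rbm20, Rbfox1, Hnrnph2 and Ryr2 was not tested.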

How the data were processed

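RNA from 8 mouse hearts was sequenced by the submitters. The deposited table gives for each gene and heart a signal value that, from the values, equals the authors' read count after division by a size factor of each heart: 100.0% of values were whole multiples of the value of 1 read (tolerance 0.001 reads), and whole reads were recovered. It also holds the authors' log2 fold change and the authors' p-values, deposited unadjusted and adjusted (NA for 3823 genes). Per the submitters' processing notes the build was mm10. For the aligner, counter, annotation, strand setting and test, the labels and file name nothing (not given in the sources used here).

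The main test was limma 3.58.1 (R 4.3.3, trend and robust options) on log2(value + 1) of the 17911 genes in the 8 hearts, as female minus male, with Benjamini-Hochberg adjustment over all genes and calls at an adjusted p under 0.05. Every adjusted p is from this fit unless another tool is named. A fold change is on the log2(value + 1) scale, which understates the change of low genes. Alternatives used edgeR 4.0.16, DESeq2 1.42.0 and limma-voom on recovered reads, other pseudocounts and filters, total reads as a covariate, replicate blocks and leaving out each heart. The genes and lists were chosen with earlier results of these data known. Named in each other list were the genes that passed or, with fewer than 4, the 4 with the smallest p. Named for each regulator were also the 2 genes (mean value at least 100) closest to it by r. Rbm38, Celf3, Celf4, Rbfox3, Ttn, Camk2d, Ldb3 and single marker genes were named outside this rule, after their values were seen. Genes that overlap a regulator were named for their position. One result that the rule would name is not reported here. Positions and lengths came from GENCODE vM21 of the same build, which matched 17869 gene identifiers. Coding sequences were aligned locally with Biopython 1.88.

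Chi-square per degree of freedom between hearts of one sex was 8.34 to 18.8, above sampling noise, so each heart counted as 1 sample. Separate hearts are the replicates. On counts simulated for the 17911 genes of this comparison, limma found 15.2% of the 66 genes given a 1.15-fold change. The share was 53.7% of 67 genes for 1.25-fold and 74.6% of 67 for 1.5-fold changes. Over all sizes of change together, 3.03% of calls were false. The changed genes were drawn over a wide range of levels, so these shares are not those of the regulators.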

Additional observations from a re-analysis of the deposited data

Results flagged for a closer look

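In 6 of 90 groups of 4 hearts 1 heart stood apart from the other 3 (by the gap to its nearest neighbour as a share of the range, given in parentheses); chance gives this in about 1 of 20 groups. Mbnl1 in females had 8546 in replicate 4 against 9379 to 9482 (0.890), and the log2 Mbnl2 to Mbnl1 ratio was highest in that heart, at 0.59 against 0.51 to 0.52 (0.843). Tra2a in females had 2590 in replicate 2 against 2828 to 2864 (0.870). In males, Srsf2 had 8424 in replicate 5 against 7730 to 7786 (0.920) and Srsf4 had 1164 in replicate 3 against 1073 to 1078 (0.945). Mef2d in males had 11856 in replicate 4 against 12644 to 12726 (0.905).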

How the results depend on the processing

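The count of all genes called was 208, and it was 690 with DESeq2 and 26 with the replicate block by library code number. The count without 1 heart ran from 77 (without female replicate 2) to 516 (without male replicate 5). The count of splicing regulators called was 0, and it was 1 (Rbfox2) with DESeq2, and 0 to 1 without 1 heart. The titles' replicate numbers are shared by 3 pairs of hearts, and so are the numbers in the library codes. Same-numbered hearts did not deviate together in every pair (r of 0.19, -0.07 and -0.09 for titles and 0.19, -0.07 and 0.19 for codes). With 3 pairs each, these values cannot tell whether same-numbered hearts were processed together. In a fit with blocks only the 3 pairs inform the fold change. By title this leaves out female replicate 2 and male replicate 5, the heart with the highest Rbm24 value (15010). By library code it leaves out female replicate 2 and male replicate 4. With the replicate block by title number 145 genes and 0 regulators were called, Mbnl1 changed sign (-0.032) and Celf2 did (0.0091), and Rbm24 had 0.11 (unadjusted p = 0.0342, limma adjusted p = 0.314) against 0.02 without the block. With the block by library code number 0 regulators were called, and Mbnl1 (-0.027) and Mbnl2 (-0.0060) changed sign. The calls of Hnrnph2 and Ryr2 were not made with the block by title (limma adjusted p = 0.211 and 0.078) or by code (0.352 and 0.253). Rbm24 changed sign with total reads as a covariate (-0.047). Without 1 heart the log2 fold changes ran from -0.013 to 0.077 for Rbm24, -0.019 to 0.036 for Mbnl1, -0.0026 to 0.030 for Mbnl2 and -0.038 to 0.024 for Celf2, so their directions are not set by these data. Without 1 heart the ratio differences (log2) ran from -0.011 to 0.047 for Mbnl2 to Mbnl1, -0.076 to 0.00074 for Celf2 to Celf1, -0.11 to 0.0015 for Rbfox1 to Rbfox2 and 0.09 to 0.18 for Ptbp2 to Ptbp1. The causes of these changes were not tested. Of 162 alternative values of the regulators' fold changes, 144 kept direction and side of the threshold, 16 changed sign and 2, both of Rbfox2, passed the threshold. Intervals were wide for some genes of low value, such as Rbfox3 (-0.59 to 1.00 at a mean value of 20.7), and differences of that size were not detectable there.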
